A study of Mus musculus with 4 samples.

Results

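The genes described here are the matrix metalloproteinases (Mmp), the secreted Adamts proteases and the 4 tissue inhibitors of metalloproteinases (Timp). They were chosen by symbol, as every gene named Mmp, Adamts or Timp followed by a number, leaving out 2 Mmp genes that are not analysed here. This gave 44 genes of 33465 labelled in the deposited table, namely 21 Mmp, 19 Adamts and 4 Timp genes. RNA was sequenced from FACS-sorted primary cells of C57BL/6 fetal liver (2 libraries) and of C57BL/6 adult bone marrow (2 libraries). The series concerns the stem cell niche of the fetal liver around portal vessels, and the comparison asks how niche cells of the 2 organs differ in their transcripts. All fetal liver libraries are fetal and all bone marrow libraries are adult. Organ and stage of life therefore cannot be told apart in any difference given here. The sources used here do not give the fetal stage, the adult age, the sort markers or the number of animals behind a library. No genotype, transgene or treatment other than the strain is labelled for either group.

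Mmp proteins are zinc-dependent endopeptidases that are made as inactive proenzymes and cleave collagens, other matrix proteins and growth factors held in the matrix. Timp proteins bind the active site of the Mmp enzymes and block it, and Timp2 also takes part in activating pro-Mmp2 on the membrane-bound protease Mmp14. Adamts proteases are secreted and cleave proteoglycans such as aggrecan and versican, the ends of procollagens, or von Willebrand factor. In hematopoietic organs, matrix proteolysis is known for remodelling of the niche and for release of stem cells and cytokines.

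In the deposited table the labels did not stand beside their own values, and they were placed again as described under the processing. Of the 44 genes, 41 reached a posterior of at least 0.95 and were placed. A group mean of at least 10 normalized reads in either organ was reached by 38 of these. The remaining 3 placed genes, Mmp1b, Mmp3 and Mmp7, stayed below 10 in both groups, and Adamts14, Mmp12 and Mmp1a were not placed. The reads of each library were worked out from the deposited group means. Which replicate number a library has is not known from the table, so the 2 libraries of an organ are named by their depth. The fetal liver libraries held 2590921 and 884204 recovered reads, and the bone marrow libraries held 858720 and 223361. Among the 38 genes the median was 78.5 and 29 reads in the fetal liver libraries and 45.5 and 9.5 reads in the bone marrow libraries, so single genes rest on few reads in the shallower bone marrow library.

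Markers of several cell types were read in all libraries, and the libraries of a group differed. Bulk reads of markers do not show whether the sorted cells were of 1 type. The 4 placed smooth muscle markers summed to 478 and 2385 normalized reads in the deeper and shallower fetal liver libraries, against 104 and 120 in the bone marrow libraries. Acta2 and Tagln, chosen after their values were seen, carried this difference. Without them the other 2, Cnn1 and Myh11, summed to 62.1 and 119 in fetal liver, against 85.1 and 77.2 in bone marrow. The 7 placed osteoblast markers summed to 1653 and 4877 in the fetal liver libraries, against 1047 and 12541 in the bone marrow libraries. Most of this was Col1a1, a collagen of many stromal cells, and the other 6, a split made after seeing the data, summed to 62.9 and 287 in fetal liver, against 290 and 2542 in bone marrow. The 6 placed neutrophil markers summed to 31.5 and 40.4 in fetal liver, against 298 and 82.9 in bone marrow, where S100a8, a neutrophil protein, had 166 and 14.3 normalized reads. The 4 placed hepatoblast markers, Afp, Apoa2, Ttr and Hnf4a, summed to 374 and 391 in fetal liver, against 80.4 and 22.9 in bone marrow. Afp alone had 260 and 285, against 18.2 and 2.86, while the Hnf4a mean was lower in fetal liver (20.3 against 27.6). The 4 of the list called (adjusted p under 0.05) were all higher in fetal liver. They were Afp, Apoa2 and the unplaced Alb and Dlk1, and not Ttr or Hnf4a. The 7 placed marrow stroma markers summed to 681 and 843 in fetal liver, against 275 and 335 in bone marrow. Cxcl12 alone had 265 and 369, against 48.6 and 45.7. Pdgfra, Nes, Kitl and Foxc1 also had higher means in fetal liver. Lepr and Ebf3 had lower means there, at 22.3 and 22.5, against 36.4 and 28.4 in bone marrow. The 3 placed pericyte markers summed to 643 and 602 in fetal liver, against 82.4 and 74.3 in bone marrow, and the 3 placed hematopoietic markers to 65.6 and 101, against 74.3 and 51.5. No placed marker of these 7 lists was at 0 in either group mean. In all, 13 marker lists were read. Of those not described above, stellate markers summed to 503 and 683 in fetal liver, against 200 and 249 in bone marrow. Endothelial markers summed to 99.7 and 127, against 208 and 152, and osteoclast markers to 42.1 and 25.0, against 88.5 and 51.5. The sums of macrophage, erythroid and megakaryocyte markers overlapped between the groups. In such bulk libraries, fewer cells of a type and less RNA per cell cannot be told apart.

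At an adjusted p under 0.05 as given in the authors' deposited table, 2 of the 44 genes, Adamts1 and Adamts9, were higher in fetal liver and 1, Mmp10, was lower. The share of all tested features called was 4.12% higher and 0.129% lower, against 4.55% and 2.27% of these genes. The other 41 genes, the 3 unplaced ones among them, did not pass this test. A second test on the recovered reads, limma with a mean-variance trend and Benjamini-Hochberg adjustment, tested 37 of the placed genes and called 6 higher in fetal liver, which is 16.2% beside 19.2% of all features it tested. These were Adamts1, Adamts9, Timp2, Mmp14, Mmp2 and Adamts10. It called 0 of the 37 lower, beside 2.87% of all features, and 2 of them were lower at an unadjusted limma p under 0.05, beside 9.17% of all features. The unplaced Adamts14 was not among the 37, and both of its candidate features were lower in limma (adjusted p = 0.0293 and 0.0305). The share called higher was near the background in both tests, so the calls are those of single genes and not of the set. Without the shallower fetal liver library, the limma fit called Adamts1 alone higher (2.7% of the 37, beside 13.7% of all features) and Timp4 lower (beside 3.57%). Without the deeper fetal liver library it called 9 higher and 1 lower, beside 14.6% and 4.16% of all features. Without the deeper bone marrow library it called 7 and 0, beside 18.9% and 1.75%, and without the shallower one 10 and 0, beside 20.7% and 1.18%.

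**Figure D1:**
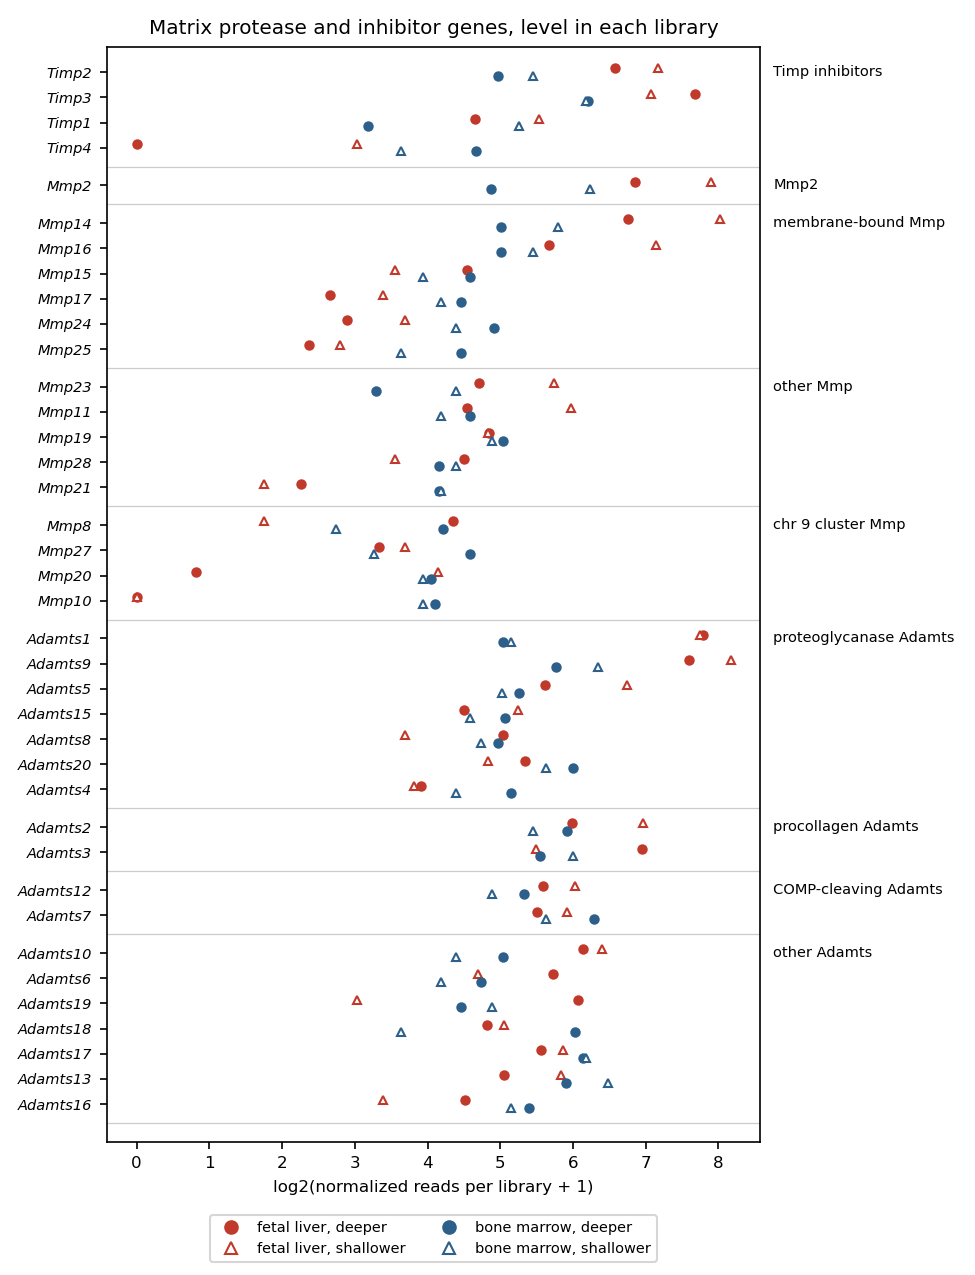
Level of the 38 placed genes with a group mean of at least 10 in each of the 4 libraries, on a scale of log2(normalized reads + 1), grouped by role. Filled circles are the deeper and open triangles the shallower library of each organ, red for fetal liver and blue for bone marrow. Adamts1, Adamts9, Timp2, Timp3, Mmp2 and Mmp14 have both fetal liver libraries to the right of both bone marrow libraries, while Mmp10 has both fetal liver libraries at 0.

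Among the proteoglycan-cleaving Adamts genes, Adamts1 and Adamts9 rose and the other 5 did not pass either test. Adamts1, which cleaves aggrecan and versican, had 221 and 213 normalized reads in the deeper and shallower fetal liver libraries, against 31.8 and 34.3 in the bone marrow libraries. The libraries of each organ lay close together and the groups were far apart. In the authors' deposited table this is a 6.56-fold higher mean of the fetal liver libraries with an adjusted p of 0.000189. The limma log2 change was 2.68 ± 0.39 (SE, n = 2 libraries each, adjusted p = 0.000158). Leaving out any 1 library kept the fold between 6.32 and 6.82.

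Adamts9, a versican-cleaving protease that also acts at the cell surface, had 193 and 287 normalized reads in the fetal liver libraries, against 53.4 and 80.1 in the bone marrow libraries. Both shallower libraries were above the deeper library of their organ, and the groups did not overlap. In the authors' deposited table the fetal liver mean was 3.59-fold higher, with an adjusted p of 0.011. The limma log2 change was 1.83 ± 0.44 (SE, n = 2 each, adjusted p = 0.00652). Without the shallower fetal liver library its limma log2 change was 1.55, against 2.11 without the deeper one.

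Adamts5, an aggrecan-cleaving protease whose gene is the next protein-coding neighbour of Adamts1 on chromosome 16, had 48.1 and 106 normalized reads in fetal liver, against 37.2 and 31.5 in bone marrow. Its 2.24-fold higher mean in the authors' deposited table had an adjusted p of 0.944, and its limma adjusted p was 0.105. Adamts4, another aggrecanase, had 14.0 and 13.1 normalized reads in fetal liver, against 34.5 and 20.02 in bone marrow. Adamts20, known for its part in pigment cell development, had 39.4 and 27.3 in fetal liver, against 62.8 and 48.6 in bone marrow. Both had their 2 fetal liver libraries below their 2 bone marrow libraries, and neither passed a test. Adamts8 and Adamts15, neighbours on chromosome 9, overlapped between the groups. Adamts8 had 31.8 and 11.9 normalized reads in fetal liver, against 30.4 and 25.7 in bone marrow. Adamts15 had 21.6 and 36.9 in fetal liver, against 32.4 and 22.9 in bone marrow.

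Of the Mmp genes, Mmp10 (stromelysin-2) was the one called lower. Its recovered reads were 0 and 0 in the fetal liver libraries, against 24 and 5 in the deeper and shallower bone marrow libraries. These are 16.2 and 14.3 normalized reads in bone marrow. A limit of 3 reads over the fetal liver group was taken for the count of 0, which is 0.862 normalized reads. The bone marrow mean of 15.3 was 17.7 times this limit. Counting error of the bone marrow mean is not included, so 17.7 is not a lower bound of the fold. The authors' deposited table gives Mmp10 an adjusted p of 0.0167. The call rests on 29 reads, and Mmp10 lay under the filter of the limma fit, which called it lower when no filter on low values was used. With no filter, limma called 6 of the set higher and 1 lower, beside 7.57% and 0.826% of all features, and with log2(normalized reads + 4) 7 and 0, beside 20.5% and 3.91%. Read beside its own label as deposited, Mmp10 would be higher in fetal liver, with a log2 ratio of 1.63, so the direction depends on the placement of the label.

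The 9 analysed Mmp genes that lie next to each other on chromosome 9 include Mmp10, the collagenases Mmp1a, Mmp1b and Mmp8, the stromelysin Mmp3, the matrilysin Mmp7, the macrophage elastase Mmp12, the enamel protease Mmp20, and Mmp27. All 7 that were placed were low in fetal liver, with means between 0 and 10.9 normalized reads, against 2.70 to 15.8 in bone marrow in the authors' deposited table. In 6 of the 7 the fetal liver mean was the lower one, but only for Mmp10 did the libraries of the 2 organs not overlap. The median log2 ratio was -0.28 over all tested features and 0.01 over those with a mean of at least 10. Features of low level thus lean to the same side in the whole table. Mmp8, the neutrophil collagenase, had 19.3 and 2.38 normalized reads in fetal liver, against 17.6 and 5.72 in bone marrow, so the libraries of an organ differed more than the organs. Mmp20 had 0.758 and 16.6 in fetal liver, against 15.5 and 14.3 in bone marrow, and its fetal liver value rests on the shallower library. Mmp27 had 9.09 and 11.9 in fetal liver, against 23.0 and 8.58 in bone marrow. Mmp12 was not placed, and its 2 most probable features point in opposite directions, with means of 10.4 and 75.1 normalized reads in fetal liver, against 35.6 and 30.6 in bone marrow in the authors' deposited table. The 2 candidate features of Mmp1a were both lower in fetal liver, with means of 3.06 and 7.06, against 7.59 and 12.2 in bone marrow in that table. Mmp1a and Mmp1b are close copies, and the sources used here do not say how reads that match both were counted.

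The sequences upstream of the 3 called genes are shown because they differ in the letters found near the start. Each is the 250 bases before the annotated start from RefSeq on GRCm38.p6, on the gene's own strand, with motif matches in capitals. The motifs searched on both strands were TGACTCA (the AP-1 consensus, TGAGTCA on the other strand), TATAAA (the TATA box) and GGGCGG (the GC box bound by Sp1 factors), and matches of different motifs did not overlap in these windows. The windows lie at chr9:7502092-7502341 (plus strand) for Mmp10, chr16:85803114-85803363 (minus strand) for Adamts1 and chr6:92943535-92943784 (minus strand) for Adamts9.
Mmp10: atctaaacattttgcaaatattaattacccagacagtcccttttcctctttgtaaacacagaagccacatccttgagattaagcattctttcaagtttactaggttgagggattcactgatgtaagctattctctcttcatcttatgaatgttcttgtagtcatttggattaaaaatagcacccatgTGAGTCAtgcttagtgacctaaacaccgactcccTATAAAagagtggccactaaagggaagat
Adamts1: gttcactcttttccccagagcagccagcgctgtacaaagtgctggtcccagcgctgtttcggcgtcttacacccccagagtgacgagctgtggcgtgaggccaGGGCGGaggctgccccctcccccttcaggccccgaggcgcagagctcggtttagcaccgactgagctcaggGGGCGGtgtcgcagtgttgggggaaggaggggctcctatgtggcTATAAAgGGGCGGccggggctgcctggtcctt
Adamts9: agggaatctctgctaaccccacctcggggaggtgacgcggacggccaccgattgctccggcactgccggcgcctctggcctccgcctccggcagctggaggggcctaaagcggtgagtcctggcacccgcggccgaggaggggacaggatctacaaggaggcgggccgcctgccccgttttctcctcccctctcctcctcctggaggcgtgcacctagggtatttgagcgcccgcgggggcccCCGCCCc

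The Mmp10 window held the AP-1 letters with their first base 63 bases before the start and TATAAA 29 bases before it. The Adamts1 window held TATAAA 32 bases before the start and 3 GC boxes, at 147, 76 and 25 bases. The Adamts9 window held 1 GC box, 7 bases before the start. A window was given for 31 of the 44 genes. The AP-1 letters stood in the windows of 6 of the 9 chromosome 9 genes (Mmp10, Mmp12, Mmp1a, Mmp1b, Mmp3 and Mmp7) and of 0 of the other 22 genes, beside 4.46% of 32851 windows of all RefSeq genes. TATAAA stood in 6 of the 9 and in 2 of the other 22, Adamts1 and Mmp21, beside 12.4% of all windows. The GC box stood in 0 of the 9 and in 16 of the other 22, beside 32.7% of all windows. These are matches of letters in 1 window per start, and no binding was measured.

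Limma, but not the authors' test, called Mmp14, Mmp2 and Timp2 higher. They are 1 of the 6 membrane-bound Mmp genes, a gelatinase and 1 of the 4 inhibitors, and were set side by side after their values were seen, so their joint direction is not a result. Each had both fetal liver libraries above both bone marrow libraries. Mmp14, the membrane-anchored collagenase, had 107 and 258 normalized reads in the deeper and shallower fetal liver libraries, against 31.1 and 54.3 in the bone marrow libraries. Its fetal liver mean was 4.27-fold higher by the authors' deposited table (adjusted p = 0.252), and the limma log2 change was 1.99 ± 0.47 (SE, n = 2 each, adjusted p = 0.00621). The fold was 2.50 without the shallower fetal liver library. Mmp2, gelatinase A, had 114 and 238 normalized reads in fetal liver, against 28.4 and 74.3 in bone marrow. In the authors' deposited table its fetal liver mean was 3.43-fold higher (adjusted p = 0.413), with a limma log2 change of 1.82 ± 0.50 (SE, n = 2 each, adjusted p = 0.015). The fold was 2.23 without the shallower fetal liver library and 6.21 without the shallower bone marrow library. Timp2 had 94.7 and 143 normalized reads in fetal liver, against 30.4 and 42.9 in bone marrow. In the authors' deposited table its fetal liver mean was 3.24-fold higher (adjusted p = 0.0818), with a limma log2 change of 1.66 ± 0.41 (SE, n = 2 each, adjusted p = 0.00803).

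The shallower library of each organ was the higher one for all 3 of these genes. The shallower fetal liver library had 2.41 times the Mmp14 level, 2.08 times the Mmp2 level and 1.51 times the Timp2 level of the deeper one. In bone marrow these ratios were 1.75, 2.62 and 1.41. The same libraries held the higher sums of osteoblast markers and, by Acta2, of smooth muscle markers, and their part in the result was not tested. Without the shallower fetal liver library the limma log2 change was 1.36 for Mmp14, 1.30 for Mmp2 and 1.37 for Timp2.

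Upstream sequence was given for Mmp14 and Timp2, and it is shown because both hold the GC box letters also found at Adamts1 and Adamts9. Capitals mark the GC box, and the windows lie at chr14:54431348-54431597 (plus strand) and chr11:118355412-118355661 (minus strand) on GRCm38.p6.
Mmp14: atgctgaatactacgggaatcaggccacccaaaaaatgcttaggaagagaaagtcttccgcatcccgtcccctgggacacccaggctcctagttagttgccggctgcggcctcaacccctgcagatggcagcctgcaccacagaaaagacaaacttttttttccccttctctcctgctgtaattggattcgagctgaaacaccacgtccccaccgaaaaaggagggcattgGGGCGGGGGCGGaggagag
Timp2: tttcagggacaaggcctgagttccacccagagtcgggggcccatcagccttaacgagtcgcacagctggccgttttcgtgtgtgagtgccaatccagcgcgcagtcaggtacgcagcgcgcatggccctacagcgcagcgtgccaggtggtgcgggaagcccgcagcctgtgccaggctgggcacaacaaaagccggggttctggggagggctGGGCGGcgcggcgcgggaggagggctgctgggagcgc
Mmp14 held 2 GC boxes side by side, 19 and 13 bases before the start, and Timp2 held 1, 37 bases before the start. Neither window held the AP-1 or TATAAA letters.

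The other inhibitors did not move together. Timp3, which binds to the matrix and also blocks Adamts and Adam proteases, had 203 and 133 normalized reads in fetal liver, against 73.0 and 71.5 in bone marrow. The groups did not overlap, but the 2.33-fold higher mean in the authors' deposited table had an adjusted p of 0.241, and the limma log2 change of 1.18 ± 0.42 (SE, n = 2 each) had an adjusted p of 0.0537. Timp1 had 24.3 and 45.2 normalized reads in fetal liver, against 8.11 and 37.2 in bone marrow. Its bone marrow libraries differed 4.58-fold, so the groups overlapped. With all libraries its limma log2 change was 0.87 (adjusted p = 0.329). That change was 1.91 without the shallower bone marrow library and -0.16 without the deeper one. Timp4 had 0 and 7.13 normalized reads in fetal liver, against 24.3 and 11.4 in bone marrow, and the adjusted p was 0.158 in limma and 1 as given by the authors' deposited table. Its 2 fetal liver values rest on 0 and 6 reads. Timp1, Timp3 and Timp4 each lie inside a synapsin gene (Syn1, Syn3 and Syn2) in the RefSeq annotation, and the sources used here do not say whether reads were counted by strand.

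Of the 6 membrane-bound Mmp genes, Mmp14 and Mmp16 had higher means in fetal liver and the other 4 had lower ones. Mmp16, which also activates pro-Mmp2, had 50.02 and 140 normalized reads in fetal liver, against 31.1 and 42.9 in bone marrow. Its 2.57-fold higher mean in the authors' deposited table had an adjusted p of 0.859, and its limma adjusted p was 0.0885. Mmp17 had 5.31 and 9.51 normalized reads in fetal liver, against 20.9 and 17.2 in bone marrow. Mmp24 had 6.44 and 11.9 in fetal liver, against 29.1 and 20.02 in bone marrow. Mmp25, also known as leukolysin for its place in leukocytes, had 4.17 and 5.95 in fetal liver, against 20.9 and 11.4 in bone marrow. Each of these 3 had both fetal liver libraries below both bone marrow libraries, with limma log2 changes between -1.46 and -1.29, and none passed a test. Mmp15 overlapped, with 22.4 and 10.7 normalized reads in fetal liver, against 23.0 and 14.3 in bone marrow.

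The remaining Mmp genes gave no call. Mmp23 had 25.0 and 52.3 normalized reads in fetal liver, against 8.78 and 20.02 in bone marrow, and a limma adjusted p of 0.0938. Mmp11 (stromelysin-3, a protease of stromal cells) had 22.4 and 61.8 in fetal liver, against 23.0 and 17.2 in bone marrow, so the higher mean came from the shallower fetal liver library. Mmp21 had 3.79 and 2.38 in fetal liver, against 16.9 and 17.2 in bone marrow. Its mean was 0.181 times that of bone marrow in the authors' deposited table, with an adjusted p of 0.542, and its limma adjusted p was 0.134. Mmp19 had 27.7 and 27.3 in fetal liver, against 31.8 and 28.6 in bone marrow, and Mmp28 had 21.6 and 10.7, against 16.9 and 20.02.

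Of the Adamts genes outside the proteoglycan-cleaving group, Adamts10, which binds fibrillin microfibrils, was the one that rose in limma. It had 69.3 and 83.2 normalized reads in fetal liver, against 31.8 and 20.02 in bone marrow. In the authors' deposited table its fetal liver mean was 2.95-fold higher (adjusted p = 0.479), with a limma log2 change of 1.55 ± 0.42 (SE, n = 2 each, adjusted p = 0.0139). Without the shallower fetal liver library its fold was 2.68 and its limma log2 change was 1.42. Adamts6, its closest relative in the family, had 51.9 and 25.0 normalized reads in fetal liver, against 25.7 and 17.2 in bone marrow, and the groups overlapped.

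The procollagen N-proteinases trim the amino end of fibrillar procollagens. Adamts2 had 62.5 and 124 normalized reads in fetal liver, against 59.5 and 42.9 in bone marrow, and Adamts3 had 122 and 44.0, against 45.9 and 62.9. The higher library in fetal liver was the shallower one for Adamts2 and the deeper one for Adamts3. Adamts14 was not placed, and both of its candidate features were lower in fetal liver, with means of 12.3 and 4.84 normalized reads, against 41.8 and 32.0 in bone marrow in the authors' deposited table (adjusted p = 0.349 and 0.35). In limma the same features had adjusted p-values of 0.0293 and 0.0305.

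Adamts13, the protease that cuts von Willebrand factor and is known from hepatic stellate cells, had 32.2 and 55.9 normalized reads in fetal liver, against 58.8 and 88.6 in bone marrow, with a limma adjusted p of 0.219. Adamts7 and Adamts12 cleave cartilage oligomeric matrix protein. Adamts7 had 44.3 and 59.5 normalized reads in fetal liver, against 77.02 and 48.6 in bone marrow, and the groups overlapped. Adamts12 had 47.0 and 64.2 in fetal liver, against 39.2 and 28.6 in bone marrow, with no overlap, and its limma adjusted p was 0.243. Adamts16 had 22.0 and 9.51 in fetal liver, against 41.2 and 34.3 in bone marrow, with a limma adjusted p of 0.0864. Adamts17 had 46.2 and 57.1 in fetal liver, against 69.6 and 71.5 in bone marrow. Adamts18 and Adamts19 changed sign between the authors' means and limma, and in each of them 1 library of an organ was far above the other. Adamts18 had 27.3 and 32.1 in fetal liver, against 64.2 and 11.4 in bone marrow, and Adamts19 had 66.3 and 7.13, against 20.9 and 28.6.

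**Figure D2:**
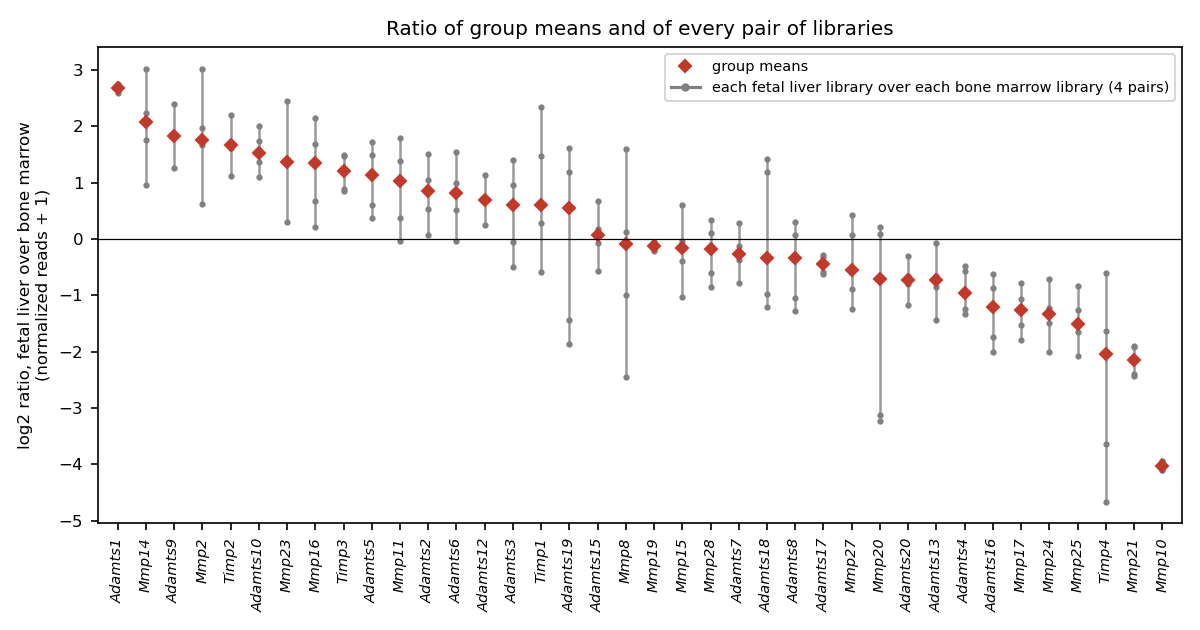
Log2 ratio of fetal liver over bone marrow (normalized reads + 1) for the 38 placed genes with a group mean of at least 10, ordered by the ratio of group means (red diamonds). Grey points are the ratios of each fetal liver library over each bone marrow library and grey lines span these 4 pairs. Adamts1 has a narrow span at a large ratio, the span of Mmp10 reflects the bone marrow libraries alone because both fetal liver libraries are at 0, and Mmp2 and Mmp14 spread widely above 0 and Adamts19, Mmp8 and Adamts18 cross it.

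Over the 38 genes with a mean of at least 10, 12 (31.6%) had both fetal liver libraries above both bone marrow libraries, beside 34.9% of all features with such a mean. Another 12 (31.6%) had both fetal liver libraries below, beside 29.8% of those features. In the remaining 14 the groups overlapped. The median log2 ratio of fetal liver over bone marrow, on the scale of group means + 1, was -0.13 over the 41 placed genes and -0.28 over all 35605 tested features. Over genes and features with a mean of at least 10 it was -0.11 and 0.01. Ratios above 0 were found for 19 of the placed genes and ratios below 0 for 22. By family the median was 0.90 over the 4 Timp genes, -0.18 over the 19 placed Mmp genes and 0.31 over the 18 placed Adamts genes.

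**Figure D3:**
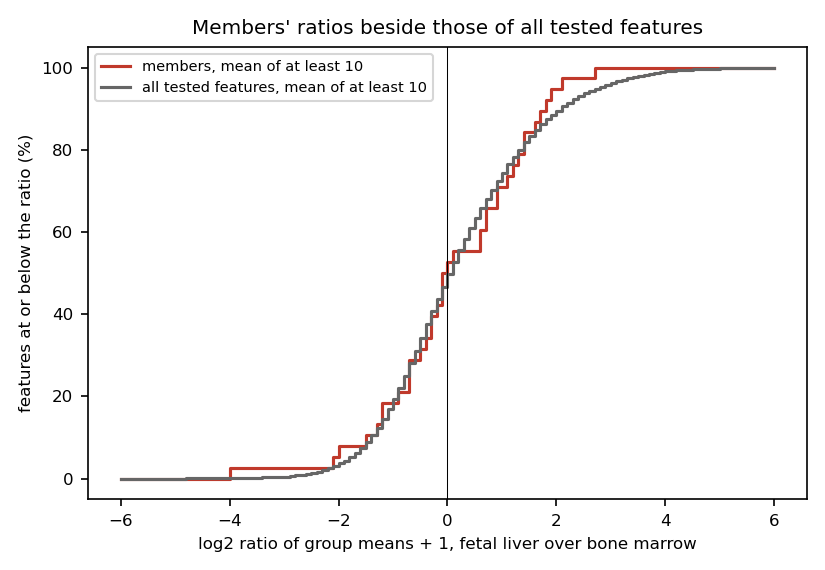
Share of features (%) at or below each log2 ratio of fetal liver over bone marrow (group means + 1), for the 38 placed genes with a mean of at least 10 (red) and for the 18446 tested features with such a mean (grey). The curves run close together, with medians of -0.11 and 0.01, and the genes do not reach the highest ratios of the grey curve.

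Levels of different genes were compared per length, as group means of normalized reads per kilobase of exon in the GENCODE M21 annotation. In fetal liver the order began with Mmp2 at 52.2, Adamts1 at 40.9, Timp1 at 39.1, Mmp14 at 30.6, Timp2 at 30.5 and Timp3 at 20.7 normalized reads per kilobase. In bone marrow it began with Timp1 at 25.5, Mmp2 at 15.2, Adamts13 at 14.97, Adamts3 at 10.02, Adamts7 at 9.999 and Timp2 at 9.41. These orders of means did not hold in each library. The deeper fetal liver library had Adamts1 first at 41.6, then Mmp2 at 33.9 and Timp1 at 27.3, and the shallower one had Mmp2 first at 70.5, then Timp1 at 50.9, Mmp14 at 43.3 and Adamts1 at 40.1. The deeper bone marrow library had Adamts7 first at 12.3, then Adamts13 at 11.9 and Mmp27 at 10.4, with Timp1 at 9.13 in sixth place, and the shallower one had Timp1 first at 41.9, then Mmp2 at 22.1 and Adamts13 in the third place. The order of the leading genes thus differed between the libraries of each organ. The 95th percentile of placed protein-coding genes was 34.3 and 36.5 in the fetal liver libraries and 12.2 and 15.8 in the bone marrow libraries. Adamts1 was above it in both fetal liver libraries, and Mmp2, Timp1, Mmp14 and Timp2 in the shallower one alone. In bone marrow it was passed by Adamts7 in the deeper library and by Timp1, Mmp2 and Adamts13 in the shallower one, and by no gene in both.

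For scale, 708 placed olfactory receptor genes, a family not known for use in either organ, had a 95th percentile of 2.81 normalized reads per kilobase in fetal liver and 4.89 in bone marrow. This yardstick was chosen after seeing the data. In fetal liver 31 of the 41 placed genes were above it, and in bone marrow 23 were. Both marks were passed by 19 genes and neither by 6. Mmp21, Mmp25, Mmp17, Mmp24 and Timp4 were among those under the mark in fetal liver, and Adamts9, Mmp16, Adamts5 and Adamts10 among those under it in bone marrow. Mmp10 was above it in bone marrow, at 8.86.

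**Figure D4:**
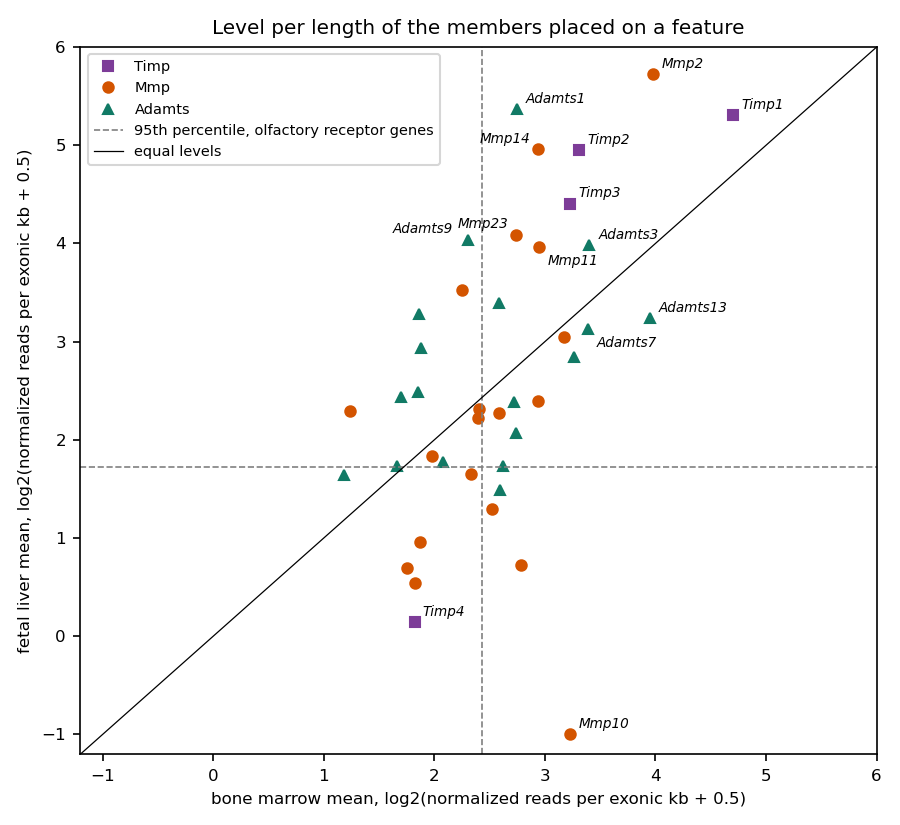
Group means per exonic kilobase in fetal liver (y axis) and bone marrow (x axis), on a scale of log2(normalized reads per kb + 0.5), for the 41 placed genes. Dashed lines are the 95th percentiles of olfactory receptor genes (2.81 in fetal liver, 4.89 in bone marrow) and the solid line marks equal levels. Mmp2, Adamts1, Mmp14 and Timp2 lie far above the line of equal levels, and Mmp10 lies at the bottom.

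Summed per kilobase, the 4 Timp genes reached 76.6 and 105 normalized reads per kilobase in the deeper and shallower fetal liver libraries, against 30.02 and 63.6 in the bone marrow libraries. The 18 placed Adamts genes reached 154 and 155 in fetal liver, against 109 and 98.6 in bone marrow. For both families the groups did not overlap. The 19 placed Mmp genes reached 121 and 215 in fetal liver, against 118 and 103 in bone marrow. These did not overlap either, but the deeper fetal liver library was close to the bone marrow libraries. Mmp2 and Mmp14, the highest Mmp genes in fetal liver, made up 49.4% of the Mmp sum in fetal liver and 20.3% in bone marrow. Adamts1, the highest Adamts gene in fetal liver, made up 26.5% of the Adamts sum there and 5.99% in bone marrow. These genes were picked by their fetal liver values. A higher share there is thus partly built in, and the difference in share is not a result. The ratio of the Timp sum to the Mmp sum was 0.635 and 0.489 in fetal liver, against 0.255 and 0.619 in bone marrow, where the low value belongs to the deeper library, and the groups overlapped.

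**Figure D5:**
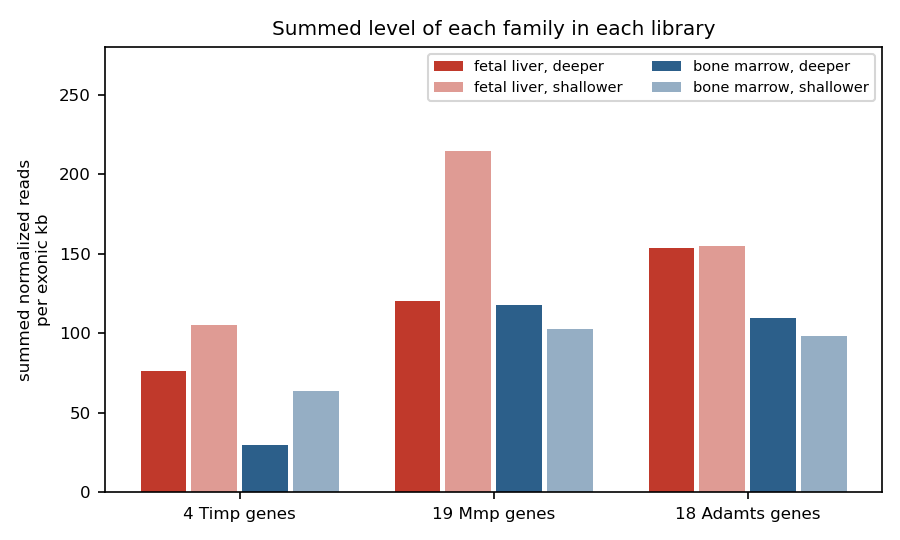
Summed normalized reads per exonic kilobase of the placed Timp, Mmp and Adamts genes in each library, red for fetal liver and blue for bone marrow, full colour for the deeper and pale for the shallower library. The shallower fetal liver library stands out for the Mmp genes, at 215, while the Adamts sums are nearly equal within fetal liver.

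Other genes of matrix proteolysis were taken from 7 lists of enzymes, inhibitors, activators and substrates. Of their 113 labelled genes, 10 (8.85%) passed an adjusted p under 0.05 and were higher in fetal liver and 1 (0.885%) was lower, as the authors' deposited table gives them, beside 4.12% and 0.129% of all features. Limma called 21 (23.1%) higher and 9 (9.89%) lower of the 91 it tested, beside 19.2% and 2.87% of all features. The lists were chosen with earlier results known, and the difference from these shares was not tested. Among 27 other protease inhibitors and enhancers, 4 rose and 0 fell by the authors' test, and limma called 5 higher and 1 lower among the 20 placed genes it tested. Cstb (cystatin B, which blocks cathepsins) had 82.2 and 74.9 normalized reads in fetal liver, against 6.08 and 2.86 in bone marrow, a 17.6-fold higher mean in the authors' deposited table (adjusted p = 0.000282). The fold was 27.5 without the deeper bone marrow library. Pcolce, which speeds the cleavage of procollagen ends, had 194 and 304 in fetal liver, against 19.6 and 48.6 in bone marrow, 7.30-fold higher by the authors' deposited table (adjusted p = 0.00841) and 12.7-fold without the shallower bone marrow library. Serping1 and Tfpi were also called higher, but their values were not fixed by the placement. Reck and Papln were chosen after their values were seen. Reck, a membrane-anchored inhibitor of Mmp2 and Mmp14, had 89.8 and 91.6 normalized reads in fetal liver, against 31.1 and 45.7 in bone marrow, with a limma log2 change of 1.24 ± 0.40 (SE, n = 2 each, adjusted p = 0.0348), against 0.285 as the adjusted p of the authors' deposited table. Papln (papilin, a matrix protein related to the Adamts family) was the 1 called lower by limma, with 12.9 and 14.3 in fetal liver, against 43.9 and 51.5 in bone marrow. Its limma log2 change was -1.74 ± 0.47 (SE, n = 2 each, adjusted p = 0.0141), and the authors' deposited table gives it an adjusted p of 0.30.

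Among 19 substrates of these proteases, 4 rose and 1 fell by the authors' test, and limma called 5 higher and 3 lower of 16 tested. Fbn2, a fibrillin of developing microfibrils, had 290 and 467 normalized reads in fetal liver, against 63.5 and 54.3 in bone marrow, and Fbn1 had 345 and 596, against 101 and 82.9. In the authors' deposited table these were 6.43-fold and 5.12-fold higher means in fetal liver (adjusted p = 0.000195 and 0.00363). Vcan (versican) and Col3a1 were called higher without a fixed value. Ncan (neurocan, a proteoglycan known from brain) had 14.4 and 27.3 in fetal liver, against 84.5 and 65.8 in bone marrow, 0.278 times the bone marrow mean in the authors' deposited table (adjusted p = 0.0318).

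Of 21 Adam and astacin proteases, 1 rose by the authors' test, and limma called 2 higher and 3 lower of 18 tested. This was Adam10, a sheddase of cell surface proteins, with 128 and 122 normalized reads in fetal liver, against 25.7 and 51.5 in bone marrow (3.25-fold higher with adjusted p = 0.0218, from the authors' deposited table), and the fold was 4.88 without the shallower bone marrow library. Of 9 protease activators, 1 rose by the authors' test and 1 by limma of 8 tested. Bsg (basigin, known to induce Mmp genes) had 300.1 and 263 in fetal liver, against 12.2 and 42.9 in bone marrow, 10.2-fold higher in the authors' deposited table (adjusted p = 0.00778). Leaving out the deeper bone marrow library gave a fold of 6.56, and leaving out the shallower one gave 23.1. In the plasminogen system (17 genes), the cathepsins (15) and the Adamts-like genes (6), the authors' test called 0 genes. At an unadjusted p under 0.05, 2 placed plasminogen genes and 4 cathepsins were higher in fetal liver, and 1 cathepsin and 2 Adamts-like genes were lower, beside 8.69% and 2.4% of all features. Limma called 3 higher and 0 lower of 13 tested plasminogen genes, 5 higher and 0 lower of 11 cathepsins, and 0 higher and 2 lower of 5 Adamts-like genes. Plau and Plaur, the urokinase protease and its receptor, were not placed.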

How the data were processed

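RNA-seq of sorted cells from fetal liver (2 libraries) and adult bone marrow (2 libraries) was used as 1 deposited table of results. The submitters' processing notes name GSNAP, HTSeq, DESeq and the build mm9 and give no version. Per the file headers, the table holds the authors' normalized signal (mean scaled counts per group), their fold ratio of fetal liver to bone marrow, and their p-value and adjusted p-value. The sources used here do not give the annotation or filters. A feature was called at an authors' adjusted p under 0.05 over all 35605 tested features.

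Gene labels (33465 for 37996 features) were closed up over unlabelled features, and only 69.4% of 9026 adjacent labels with equal p stood in ascending order. They were placed again, in their order, by a hidden Markov model using identifier order within equal p-values and a LightGBM 4.6.0 score of gene structure (GENCODE M21) in 5 folds, averaged over 3 seeds. A value is printed for labels with a posterior of at least 0.95 (25900 of 32237). In a simulation of the placement over 24495 labels, 99.6% of placed labels were right. The simulated table was built from features that the same model had already given a label, and these labels were taken as true. Features left without a label and labels that were hard to place were not in it. The share is therefore not an error rate for the whole deposited table.

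Whole reads of each library were recovered from the group means, with a single solution for 31921 of 31921 fetal liver and 34525 of 34525 bone marrow features with means up to 10000. A wrong step solved 9.28% and 2.04%. The limma 3.58.1 fit (R 4.3.3) was made on log2(normalized reads + 1) of all 4 libraries, for the 16502 features whose mean was 10 or more. On simulated reads it recovered 65% of 4-fold and 100% of 8-fold changes. The simulation gave all features 1 dispersion of 0.0826 and raised 100 features for each fold, with none lowered. In the data limma called 3172 features higher and 474 lower, and the spread between libraries varied from gene to gene. The simulated shares are therefore not recovery rates for the real comparison. Recovered reads are inferred, so count models were not used. Intervals and limits from reads cover counting error only, and the limit for Mmp10 covers that of the fetal liver reads alone.

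The genes and gene lists were chosen with earlier results of these data known. Every gene of the set is accounted for. Library values are given for those placed with a mean of at least 10 in either group, and genes of other lists are named where the authors' test called them. The labels do not say that the libraries of an organ come from different animals. The p-values therefore speak of the spread between libraries and not between animals, and that spread may be technical. The SE and p-value of limma are moderated. They draw on the spread of all features tested as well as on that of the gene itself. Sequences are from RefSeq on GRCm38.p6, matched by symbol. That build differs from the authors', so only its names, gene order and windows were used. Alternatives were other placements, another adjustment, limma, other pseudocounts and filters, and leaving out each library.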

Additional observations from a re-analysis of the deposited data

How the results depend on the processing

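With labels read as they stand in the deposited table, 3 genes of the set were called higher and 0 lower, the median log2 ratio over the set was -0.74, and the log2 ratio was 1.63 for Mmp10, -3.07 for Timp2, -2.08 for Mmp2, 1.22 for Mmp25, -0.83 for Mmp23, -0.53 for Mmp16, 2.90 for Adamts20, -0.91 for Adamts3, -1.48 for Adamts6, 0.74 for Timp4, -2.03 for Adamts2, -0.58 for Adamts12 and -0.83 for Adamts15, since the labels then stand beside other features. Adjusting the authors' p-values only over features whose mean was 10 or more gave 3 higher (11% of all) and 0 lower (0.502%), where Timp2 was added and Mmp10 was not tested. Over the placed genes limma gave 6 higher and 0 lower. With log2(normalized reads + 4) it gave 7 and 0, where 20.5% and 3.91% of all features were called. With no filter on low values it gave 6 and 1, where 7.57% and 0.826% were called. The unplaced Adamts14 is outside the limma counts, and both of its candidate features were lower in the main fit (limma adjusted p = 0.0293 and 0.0305). Leaving out each library in turn gave 1 to 10 higher and 0 to 1 lower in limma, beside 13.7% to 20.7% and 1.18% to 4.16% of all features, and a median between -0.20 and 0.35. Without the shallower fetal liver library 5 of the 6 limma calls were lost (Adamts9, Timp2, Mmp14, Mmp2 and Adamts10), Adamts1 alone was called higher and Timp4 lower. Without the deeper one Mmp23, Mmp16 and Adamts5 were added and Adamts16 was lower. Without the deeper bone marrow library Timp3 was added, and without the shallower one Timp3, Mmp23, Mmp16 and Timp1 were. Over these 4 fits the limma log2 change took the other sign at least once for Mmp27 (-1.07 to 0.25), Adamts3 (-0.28 to 1.17), Adamts7 (-0.58 to 0.078), Timp1 (-0.16 to 1.91), Adamts18 (-1.09 to 1.30), Mmp20 (-3.18 to 0.15), Adamts19 (-1.65 to 1.40), Adamts15 (-0.32 to 0.42), Adamts8 (-1.17 to 0.18), Mmp15 (-0.71 to 0.29), Mmp8 (-1.73 to 0.86) and Mmp28 (-0.73 to 0.22), none of them called with all libraries. Mmp10 was in none of these fits. With each label at its most probable feature, a posterior of at least 0.99 or 10 added to the group means, no gene tried changed direction, and these use the same p-values and are no second test. In limma on all libraries the sign differed from that of the authors' means for Adamts18 (0.10) and Adamts19 (-0.12). For the other matrix protease and inhibitor lists, limma gave 21 higher and 9 lower, against 10 and 1 by the authors' test. The cause of these differences was not tested. With 2 libraries a group, and 2 to 31 reads per gene in the shallower bone marrow library over the 38 genes, depth limits what single genes can show. No paired analysis was possible because the groups share only 1 replicate number and the table does not tie libraries to numbers.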
